A study of Homo sapiens with 9 samples.

Results

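Epithelial to mesenchymal transition (EMT) was followed at the mRNA level through 10 genes: the transcription factors ZEB1, ZEB2, SNAI1, SNAI2, TWIST1 and TWIST2, and the readouts CDH1, VIM, CDH2 and FN1. They were chosen by name, as the rows of these genes among the 23619 gene symbols measured, and all 10 were found. RNA sequencing had been done on RKO cells, an established colorectal carcinoma line, in which a coding exon of DIP2C had been targeted with a viral vector, and the question put to the data was which EMT factors accompanied ZEB1 and whether the readouts followed. The groups were parental RKO with both DIP2C alleles intact (n = 2 samples), DIP2C-/- with both alleles targeted (clones E3 and C10), and DIP2C+/- with 1 allele targeted (clones A6-C9, F6-A7, G1-A5, A9-A12 and H9-A4). The study's text describes fewer heterozygous clones than the files hold, and the labels do not say which ones it used, so all were kept. All were grown for 48 h. Each clone grew from a single cell and was sequenced as 1 library. The DIP2C-/- clones were made by retargeting heterozygous cells, so clones need not be independent, and nothing in the labels says that the parental samples were separate cultures. No clone that had gone through targeting with both alleles intact was analysed here. P-values therefore measure the spread between these clones and samples.

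EMT is the programme by which epithelial cells give up their cell junctions and take on a motile, mesenchymal form. In carcinoma cells it is driven by zinc finger factors (ZEB1, ZEB2, SNAI1, SNAI2) and helix-loop-helix factors (TWIST1, TWIST2) that bind E-boxes in DNA and repress epithelial genes, of which CDH1 (E-cadherin) is the best known. Vimentin (VIM), N-cadherin (CDH2) and fibronectin (FN1) are the usual readouts of the mesenchymal end. The microRNAs of the miR-200 family repress ZEB1 and ZEB2 and are in turn repressed by them.

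Levels are given as CPM (a gene's counts scaled to the total counts of its library, after TMM normalisation), and the deposited values summed to 14772593 to 21486483 per sample. At this depth 3 counts, taken as the detection floor, equal 0.14 to 0.203 CPM, which covers counting error only. DIP2C itself stood at 60.9 and 70.8 CPM in parental RKO, at 17.4 and 22.8 CPM in DIP2C-/- clones and at 33.6 to 56.2 CPM in DIP2C+/- clones. All 7 clones lay below both parental samples, at 30.5% of the parental mean in DIP2C-/- and at 51.0% to 85.4% in DIP2C+/-, highest in H9-A4. The mRNA level does not measure the targeted exon. Clone H9-A4 stood apart from its group in the whole library: chi-square per degree of freedom was 117 to 137 between it and the other DIP2C+/- clones, against 24.6 to 63.3 among those clones. The tests that compare groups are therefore given with all 9 samples and without H9-A4, except for CDH2, which was fitted with 9 samples alone. Of a list of 10 colon epithelial markers, CDX2 lay at 15.6 to 19.8 CPM and KRT18 at 121 to 293 CPM in every sample, whereas KRT19 was at or under 0.201 CPM in every sample and EPCAM reached at most 3.78 CPM, in H9-A4. The list summed to 248 to 306 CPM in parental RKO, 151 to 184 CPM in DIP2C-/- and 182 to 331 CPM in DIP2C+/-, with 4 to 10 of its 10 genes above the floor. KRT18 made up most of this sum in every sample, so the sums chiefly follow that gene. A list of 10 fibroblast markers summed to 4.97 to 8.85 CPM in all samples, with 7 to 9 genes above the floor. LUM alone gave 4.98 CPM of the highest sum, that of G1-A5. The part of these markers in the results was not tested.

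ZEB1 was the only member that rose past the test, and it did so with H9-A4 left out. That clone was set apart on these same libraries and was the 1 clone with ZEB1 below both parental samples. The p-values without it therefore depend on a choice made from these data. ZEB1 lies at chr10:31607424-31818742 on the plus strand of GRCh37. It was at 17.8 and 20.7 CPM in the parental samples and at 109 and 119 CPM in DIP2C-/- clones E3 and C10. In the DIP2C+/- clones it was at 87.1 CPM in A6-C9, 85.9 in F6-A7, 52.7 in G1-A5, 82.0 in A9-A12 and 12.9 in H9-A4. Thus 6 of 7 clones lay above both parental samples with no overlap, and H9-A4 lay below both. The group means were 19.3 ± 2.02 CPM (SD, n = 2) in parental RKO, 114 ± 6.96 (n = 2) in DIP2C-/- and 64.1 ± 31.9 (n = 5) in DIP2C+/-, or 76.9 ± 16.3 (n = 4) without H9-A4. In bulk RNA, more cells with ZEB1 and more ZEB1 RNA per cell cannot be told apart. These values rest on 322 to 2260 reads per library. The RefSeq start of ZEB1 lies upstream of the gene start given above, which is that of another annotation (GENCODE). The sequence around the RefSeq start (250 bases before to 50 after it, chr10:31607096-31607395, plus strand, GRCh37) is shown for an E-box. It holds, in capitals, 1 copy of CAGGTG, the E-box that ZEB and SNAI proteins bind, 57 bases before the RefSeq start.
ZEB1: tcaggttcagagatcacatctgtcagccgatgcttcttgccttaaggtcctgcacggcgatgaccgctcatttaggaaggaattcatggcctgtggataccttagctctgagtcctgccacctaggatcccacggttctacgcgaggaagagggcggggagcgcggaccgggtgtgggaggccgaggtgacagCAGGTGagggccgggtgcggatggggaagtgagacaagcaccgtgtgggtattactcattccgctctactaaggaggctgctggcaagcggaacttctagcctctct
The hexamer was searched as CACCTG and CAGGTG, which are the same site read on either strand, and 20.6% of 35116 RefSeq promoter windows of this length held at least 1 copy. It was found in 1 of the 6 windows available for the members, those of ZEB1, ZEB2, TWIST2, VIM, CDH2 and FN1, and no window was used for CDH1, SNAI1, SNAI2 and TWIST1. A match describes letters and not a bound site.

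**Figure D1:**
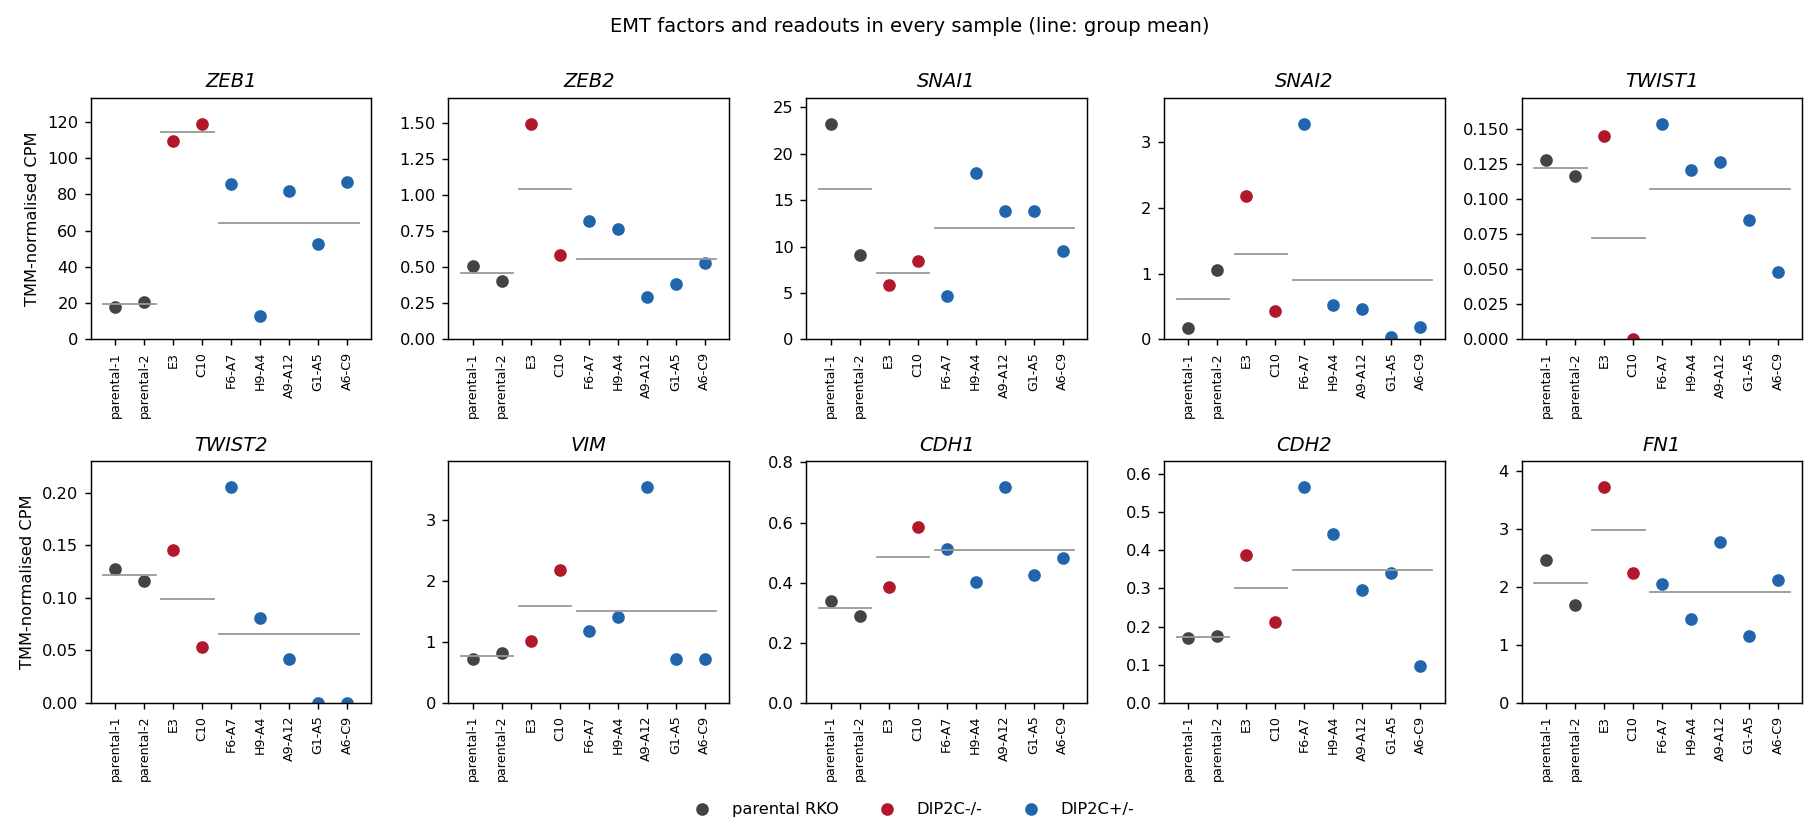
TMM-normalised CPM of the 10 members (y axis, linear from 0, own scale for each gene) in 2 parental RKO samples (grey), 2 DIP2C-/- clones (red) and 5 DIP2C+/- clones (blue), with a line at each group mean. ZEB1 stood at 52.7 to 119 CPM in 6 clones and at 12.9 to 20.7 CPM in H9-A4 and the parental samples, and of the other members only SNAI1 exceeded 3.72 CPM.

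With all 9 samples, ZEB1 did not pass an adjusted p of 0.05 in edgeR's quasi-likelihood test (Benjamini-Hochberg over 15532 genes). The log2 fold change against parental RKO was 2.57 ± 0.66 (SE) in DIP2C-/- (adjusted p = 0.302), 1.73 ± 0.58 in DIP2C+/- (adjusted p = 0.386) and 1.97 ± 0.58 averaged over all 7 clones (adjusted p = 0.27). Few genes were called at all in that fit: 0.00644% in DIP2C-/-, 0.0966% in DIP2C+/- and 0.18% in the average of all clones, of which 0.00644% were higher and 0.174% lower in the clones. The targeted gene DIP2C, lower in all 7 clones, was not among those called (edgeR adjusted p = 0.0998, 0.386 and 0.132). A gene that was not called in that fit may therefore still differ. Without H9-A4, the edgeR test called ZEB1 in each of the 3 comparisons, at 2.57 ± 0.24 in DIP2C-/- (adjusted p = 0.000146), 2.00 ± 0.22 in DIP2C+/- (adjusted p = 0.000253) and 2.19 ± 0.21 in the average of 6 clones (adjusted p = 0.000104), a 4.55-fold higher level. The background was then 4.76%, 7.95% and 8.95% of 15390 genes, the last made up of 4.48% higher and 4.47% lower. Against it 1 of the 7 members that passed the filter on low counts was called in each comparison, and in each it was ZEB1. The filter removed CDH2, TWIST1 and TWIST2.

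The DIP2C-/- clones had the highest ZEB1 levels of all samples, and both lay above every DIP2C+/- clone. The log2 difference of DIP2C+/- from DIP2C-/- was -0.83 ± 0.50 with all samples (edgeR adjusted p = 0.893) and -0.57 ± 0.19 without H9-A4 (edgeR adjusted p = 0.679, unadjusted p = 0.012). In this comparison 0% of genes were called in either fit. DIP2C itself was not called, at 1.11 ± 0.22 with all samples (edgeR adjusted p = 0.878) and 1.00 ± 0.19 without H9-A4 (edgeR adjusted p = 0.679). The lack of calls therefore does not show that the genotypes are alike. ZEB1-AS1, an antisense RNA whose annotated span overlaps ZEB1 by 1953 bases, lay at 2.64 and 2.62 CPM in parental RKO, 5.37 and 6.18 in DIP2C-/- clones and 2.09 to 6.23 in DIP2C+/- clones. It was lowest in H9-A4, as ZEB1 was. Whether counting used strand is not given in the sources used here, so reads in the overlap cannot be assigned to 1 of the pair.

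Among the other member factors, SNAI1 was the only one expressed near the level of ZEB1. SNAI1, which represses CDH1 early in EMT, lies at chr20:48599517-48605423 (plus strand). Per kilobase of annotated exon it was the highest member in parental RKO, at 9.50 CPM per kb against 2.23 for ZEB1 and at most 0.185 for any other. In DIP2C-/- the order of these levels was turned, with ZEB1 at 13.2 and SNAI1 at 4.18 CPM per kb. In DIP2C+/- the means were nearly equal with all 5 clones, at 7.41 for ZEB1 and 7.02 for SNAI1, and were 8.89 and 6.14 without H9-A4. ZEB1 lay below SNAI1 in G1-A5 (6.1 and 8.14 CPM per kb) and in H9-A4 (1.5 and 10.5). The parental samples themselves lay far apart for SNAI1, at 23.3 and 9.13 CPM. Clones E3 and C10 were at 5.80 and 8.47 CPM, F6-A7 was at 4.67, and A6-C9, G1-A5, A9-A12 and H9-A4 were at 9.51, 13.9, 13.8 and 18.0. No clone lay above both parental samples, 3 lay below both, and 4 lay between them. The log2 fold change in the average of all clones was -0.65 ± 0.44 (edgeR adjusted p = 0.543), and -0.81 ± 0.41 without H9-A4 (edgeR adjusted p = 0.264). In DIP2C-/- alone it was -1.18 ± 0.58 with all 9 samples (edgeR adjusted p = 0.425, unadjusted p = 0.0685). Without H9-A4 it was -1.18 ± 0.53 (edgeR adjusted p = 0.26, unadjusted p = 0.0474). The sign of the average of all clones rested on the first parental sample: without that sample the average was 0.17. In DIP2C-/- the log2 value stayed negative over 17 alternative settings, at -1.71 to -0.36.

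ZEB2, the paralog of ZEB1 with overlapping targets, stayed under 2 CPM in every sample. It was at 0.511 and 0.407 CPM in parental RKO, 1.5 and 0.586 in DIP2C-/- clones E3 and C10, and 0.531, 0.821, 0.383, 0.295 and 0.764 in A6-C9, F6-A7, G1-A5, A9-A12 and H9-A4. Of the 7 clones 5 lay above both parental samples, E3 and C10 among them, and 2 lay below. C10 had 11 reads and the first parental sample 12. How many of all genes separate in this way was not counted. In DIP2C-/- the log2 fold change was 1.14 ± 0.68 (edgeR adjusted p = 0.502), and 1.15 ± 0.71 without H9-A4 (edgeR adjusted p = 0.436). The average of all clones differed from parental RKO by 0.53 ± 0.56 on the log2 scale (edgeR adjusted p = 0.728), or 0.47 ± 0.60 without H9-A4 (also 0.728). SNAI2 was at 0.170 and 1.05 CPM in the parental samples. It was at 2.18 and 0.426 CPM in E3 and C10, and at 0.193, 3.28, 0.0426, 0.464 and 0.523 CPM in the DIP2C+/- clones in the same order. E3 and F6-A7 were high, and the other 5 clones lay at or below the higher parental sample, so the clones did not move together (0.70 ± 1.24, edgeR adjusted p = 0.859, and without H9-A4 0.82 ± 1.24, adjusted p = 0.774). These 2 factors rested on 7 to 31 and 1 to 64 reads per library.

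TWIST1 and TWIST2, near-identical paralogs in their helix-loop-helix region, were at or near the detection floor throughout. Over the 9 libraries TWIST1 had 20 reads in all and TWIST2 had 16. TWIST1 lay between 0 CPM in C10 and 0.154 CPM in F6-A7, with 0.128 and 0.116 in parental RKO. TWIST2 lay between 0 CPM in G1-A5 and A6-C9 and 0.205 CPM in F6-A7, with 0.128 and 0.116 in parental RKO. A difference in either gene was not detectable at this depth, and reads shared between the pair cannot be assigned.

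The readouts were all low in RKO cells and none passed the test. CDH1, at chr16:68771195-68869440 (plus strand), was at 0.341 and 0.291 CPM in the parental samples, on 5 to 17 reads per library. It was at 0.387 and 0.586 CPM in E3 and C10 and at 0.483, 0.513, 0.425, 0.717 and 0.402 CPM in A6-C9, F6-A7, G1-A5, A9-A12 and H9-A4. All 7 clones lay above both parental samples, so no fall of this target of the EMT factors was seen. A rise cannot be read from it either, since E3 and the first parental sample had 8 reads each. How many of all genes separate in this way from 2 parental samples was not counted. The difference was small against its error, at 0.60 ± 0.48 on the log2 scale with 9 samples (edgeR adjusted p = 0.618) and 0.65 ± 0.55 without H9-A4 (edgeR adjusted p = 0.559). The 5 and 8 parental reads limit how large a fall could have been detected.

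VIM, the intermediate filament of mesenchymal cells, lies at chr10:17270240-17279592 (plus strand). It was at 0.724 and 0.814 CPM in parental RKO, 1.02 and 2.18 in E3 and C10, and 0.725, 1.18, 0.723, 3.54 and 1.41 in A6-C9, F6-A7, G1-A5, A9-A12 and H9-A4. Of the 7 clones 5 lay above both parental samples, 1 below and 1 between. H9-A4, with the lowest ZEB1, had more VIM than 4 of the 6 clones with high ZEB1, on 35 reads against 15 to 23. G1-A5 and A6-C9, with high ZEB1, had VIM at the parental level, on 17 and 15 reads against 17 and 14. VIM rested on 14 to 84 reads per library, so such rankings carry a large counting error. The log2 fold change in the average of all clones was 0.98 ± 0.68 (edgeR adjusted p = 0.55), and 1.00 ± 0.71 without H9-A4 (edgeR adjusted p = 0.457). VIM shares 1778 bases with the antisense gene VIM-AS1. The study had picked ZEB1 and VIM from these same libraries, so their directions here are not independent evidence. It also measured both by RT-qPCR, where ZEB1 was higher in DIP2C-/- cells and a rise of VIM was not borne out. Its immunoblot showed more ZEB1 protein in the knockout clones.

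CDH2, the mesenchymal cadherin, was at 0.170 and 0.174 CPM in parental RKO and at 0.0966 to 0.564 CPM in the clones, 6 of which lay above both parental samples and A6-C9 below. It had 2 to 11 reads per library and failed the filter. Fitted without a filter, it differed by 1.01 ± 0.69 on the log2 scale (edgeR adjusted p = 0.677). FN1, a matrix glycoprotein, was at 2.47 and 1.69 CPM in the parental samples, 3.72 and 2.24 in E3 and C10, and 2.13, 2.05, 1.15, 2.78 and 1.45 in the DIP2C+/- clones in the order above. Its clones lay on both sides of the parental samples, with 2 above, 2 below and 3 between (0.07 ± 0.43, edgeR adjusted p = 0.961, and without H9-A4 0.15 ± 0.44, adjusted p = 0.893). The median log2 fold change of the 7 members tested was 0.60 with 9 samples and 0.65 without H9-A4, beside 0.02 and 0.01 for all genes tested. That median counts ZEB1 and 6 members that did not pass the test.

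**Figure D2:**
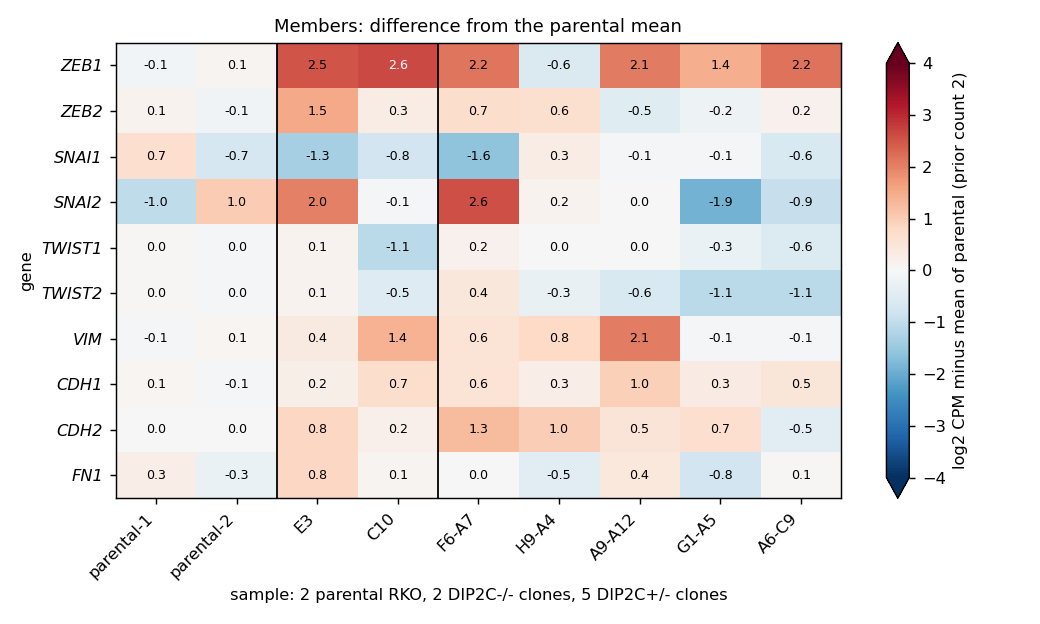
Log2 CPM minus the mean of the parental samples (colour and printed value, prior count 2) for the 10 members (rows) in each sample (columns). ZEB1 was 1.45 to 2.63 above the parental mean in 6 clones and -0.57 in H9-A4, and no other member lay above the parental mean in these 6 clones and below it in H9-A4.

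The genes whose profile over the 9 samples was most like that of ZEB1, by the root mean square difference of log2 CPM minus the parental mean, were UTS2 (0.296), F8 (0.316), BCL10 (0.317), SHANK1 (0.327) and GJC1 (0.33). The median over all genes was 1.83. BCL10 was at 37.4 and 29.8 CPM in parental RKO, 98.6 to 176 in the 6 clones with high ZEB1 and 19.99 in H9-A4. SHANK1 was at 22.2 and 32.7 CPM in parental RKO, 55.4 to 132 in those 6 clones and 17.0 in H9-A4. None of the 5 is an EMT factor or readout on the lists used here. The genes most like VIM were GPR146 (0.388), ITIH2 (0.395) and PDZD4 (0.406), against a median of 0.973.

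Genes of the wider EMT programme were taken from lists set by function. These were 15 other EMT factors, 30 epithelial genes, 24 mesenchymal genes and 20 partners of the EMT factors. A further list held 7 genes of microRNAs that repress ZEB1 and ZEB2, including the host gene MIR205HG. With all 9 samples no gene of these lists passed the edgeR test in the average of all clones. At an unadjusted p under 0.05 there were 1 of 9 other factors, 5 of 21 epithelial genes, 6 of 19 mesenchymal genes and 4 of 20 partners tested, beside 2079 of 15532 genes. DESeq2 called 304 genes in that comparison and none of the members or of these 4 lists of tested genes. The list results that follow lead with the fit without H9-A4, where 8.95% of all genes were called, and give the log2 fold changes with all 9 samples after it.

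Among epithelial genes, changes past the test were all downward. Of 20 tested without H9-A4, 8 fell in the clones, none rose and 12 did not pass the test. The 8 were MARVELD3, CLDN3, CDS1, PKP3, INADL, CGN, LLGL2 and PKP2, and the list's median was -0.54, beside 0.01 for all genes, with 18 of 20 values negative. In single clones the median of the 21 genes tested with all samples was, against parental RKO, -0.74 and -0.86 in E3 and C10, -0.73, -0.49, -0.65 and -0.22 in A6-C9, F6-A7, G1-A5 and A9-A12, and -0.09 in H9-A4. MARVELD3, a tight junction membrane protein, was at 7.54 and 7.44 CPM in the parental samples, at 0.58 and 0.107 CPM in E3 and C10, at 0.338 to 0.531 CPM in the other 4 clones with high ZEB1, and at 8.28 CPM in H9-A4. Its log2 fold change was -4.24 ± 0.45 (edgeR adjusted p = 0.000178). CLDN3 (claudin 3, also of the tight junction) was at 1.41 and 0.872 CPM in parental RKO, 0.0484 to 0.253 in the same 6 clones, near or under the floor, and 3.46 in H9-A4 (-3.06 ± 0.52, edgeR adjusted p = 0.00424). CDS1, a lipid synthesis enzyme often counted with epithelial genes, was at 20.4 and 21.2 CPM in parental RKO, 3.92 to 10.1 in the 6 clones and 27.9 in H9-A4 (-1.82 ± 0.29, edgeR adjusted p = 0.0032). PKP3, a plakophilin of desmosomes, was at 98.99 and 102.1 CPM in parental RKO, 22.3 to 62.0 in the 6 clones and 145 in H9-A4 (-1.38 ± 0.24, edgeR adjusted p = 0.00524). With all 9 samples the log2 fold changes of these 4 genes were -2.65 ± 1.03, -1.52 ± 1.09, -1.26 ± 0.58 and -0.98 ± 0.44, and none passed the edgeR test (adjusted p from 0.327 to 0.566). For all 8 genes that fell, the 6 clones lay below both parental samples. The genes were called by comparing these same samples, so this separation adds no support of its own. H9-A4 lay above both for 5 of the 8 (these 4 and LLGL2), between them for CGN, and below both for INADL and PKP2.

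Promoter windows of 300 bases were on hand for 11 of the 20 epithelial genes tested, and 7 of the 11 (63.6%) held CACCTG or CAGGTG, against 20.6% of all windows. The list was drawn up as epithelial targets, so its higher share may come from that choice and is not a result of these libraries. Among the 4 windows of genes that were called the hexamer was in 3, and among the 7 of genes not called it was in 4. These are too few windows to compare called with uncalled genes. The 3 windows are shown, with the hexamer in capitals, because they belong to genes called lower in the 6 clones. INADL was below both parental samples in H9-A4 too, where ZEB1 was lowest. Whether ZEB1 acts on these genes was not tested. Coordinates are GRCh37: CDS1 at chr4:85504030-85504329 (plus strand), CLDN3 at chr7:73184551-73184850 (minus strand) and INADL, named PATJ in RefSeq, at chr1:62207902-62208201 (plus strand).
CDS1: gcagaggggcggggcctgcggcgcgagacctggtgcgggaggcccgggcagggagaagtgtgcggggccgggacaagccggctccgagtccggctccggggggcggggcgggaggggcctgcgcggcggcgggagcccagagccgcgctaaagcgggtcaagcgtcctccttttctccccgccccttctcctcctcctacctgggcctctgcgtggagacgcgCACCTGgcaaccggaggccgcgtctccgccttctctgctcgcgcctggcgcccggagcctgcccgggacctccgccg
CLDN3: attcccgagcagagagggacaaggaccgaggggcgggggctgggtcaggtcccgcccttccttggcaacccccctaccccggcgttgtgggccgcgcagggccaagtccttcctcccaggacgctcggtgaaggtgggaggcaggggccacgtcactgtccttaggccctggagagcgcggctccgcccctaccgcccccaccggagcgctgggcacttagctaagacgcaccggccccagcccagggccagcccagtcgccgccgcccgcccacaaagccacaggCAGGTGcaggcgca
INADL: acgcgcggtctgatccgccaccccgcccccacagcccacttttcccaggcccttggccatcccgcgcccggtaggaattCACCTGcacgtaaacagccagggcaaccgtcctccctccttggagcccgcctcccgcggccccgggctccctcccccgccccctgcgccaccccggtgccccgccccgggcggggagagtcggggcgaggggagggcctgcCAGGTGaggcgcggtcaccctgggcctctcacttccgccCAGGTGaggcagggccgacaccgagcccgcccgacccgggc
The copy in CDS1 begins 27 bases before the start, that in CLDN3 37 bases after it, and those in INADL 171 and 30 bases before and 10 bases after it. INADL, a scaffold of the tight junction that was named here for its window after its values were seen, was at 58.7 and 60.9 CPM in parental RKO, 21.7 to 38.1 in the 6 clones and 52.7 in H9-A4 (-1.09 ± 0.21, edgeR adjusted p = 0.00829). In the fit of 9 samples it was -0.93 ± 0.27 (edgeR adjusted p = 0.271). The window of CGN, which was also lower, had no copy. The ZEB1 window shown above held the same hexamer, and ZEB1 was higher in the 6 clones. The part of the hexamer in any of these levels was not tested.

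**Figure D3:**
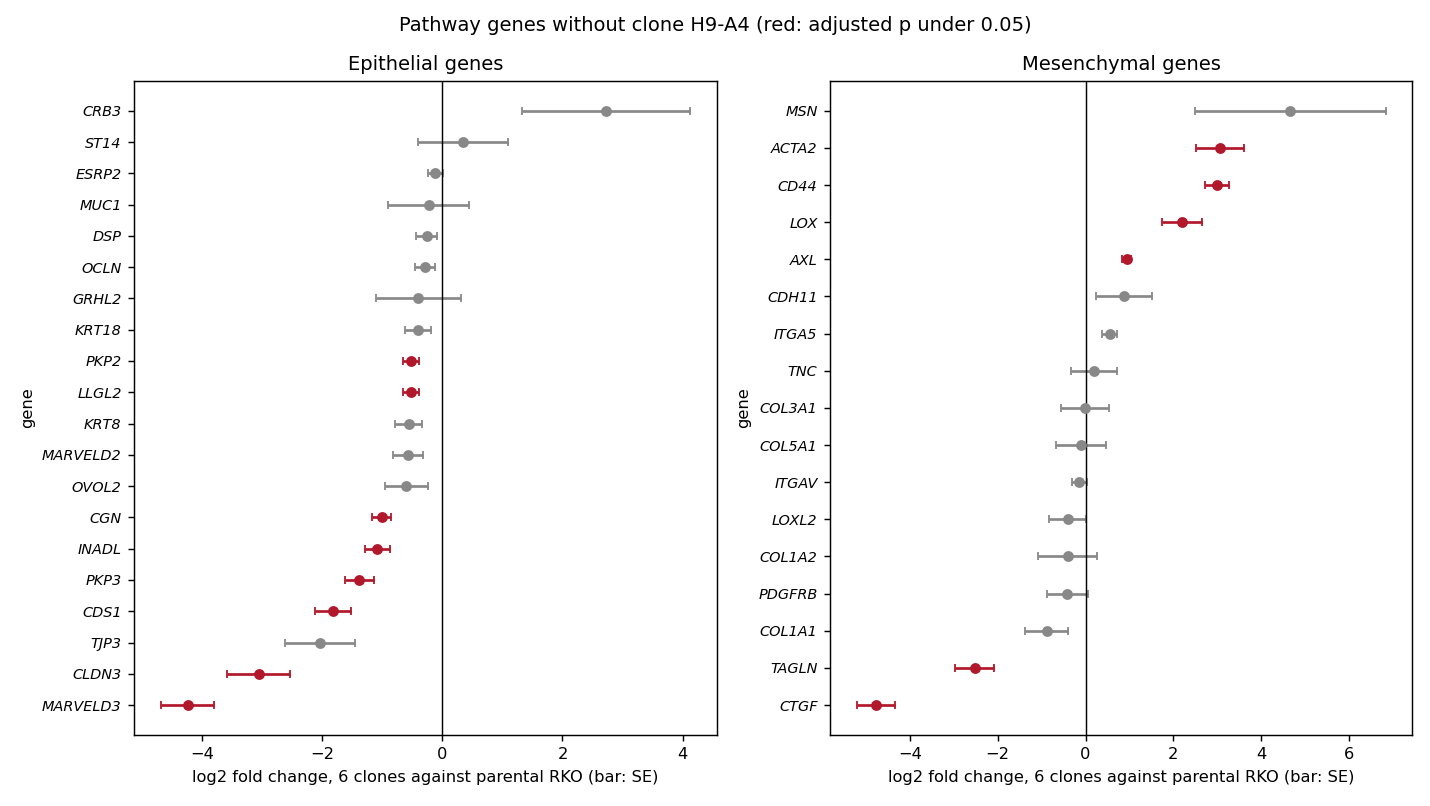
Log2 fold change (x axis, bars SE) of the epithelial and mesenchymal genes tested in 6 clones against 2 parental RKO samples, with H9-A4 left out and genes of adjusted p under 0.05 in red. Of 20 epithelial genes 8 were called, all lower, and of 17 mesenchymal genes 4 were called higher and 2 lower.

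Mesenchymal genes moved both ways. Of 17 tested without H9-A4, 4 rose (ACTA2, CD44, LOX and AXL), 2 fell (CTGF and TAGLN) and 11 did not pass the test, with a median of -0.01. CD44, a hyaluronan receptor that the study had itself picked from these libraries, was at 28.4 and 24.8 CPM in parental RKO, 182 and 272 in E3 and C10, 164 to 287 in the other 4 clones with high ZEB1, and 1.01 in H9-A4 (3.0 ± 0.26, edgeR adjusted p = 4.71e-05). The study also reported higher CD44 in DIP2C-/- cells by RT-qPCR. In H9-A4 CD44 was far below parental RKO, so that clone departed from the parental level in the direction opposite to the other 6. ACTA2, smooth muscle actin, was at 0.937 and 0.93 CPM in parental RKO, 3.36 to 11.3 in the 6 clones and 0.161 in H9-A4 (3.06 ± 0.54, edgeR adjusted p = 0.0056). LOX, a collagen crosslinking enzyme, was at 0.596 and 0.698 CPM in parental RKO and 1.98 to 4.26 in the 6 clones (2.2 ± 0.45, edgeR adjusted p = 0.0126). AXL was at 749 and 671 CPM in parental RKO, 1269 to 1434 in the 6 clones and 668 in H9-A4. Its log2 fold change was 0.93 ± 0.11 without H9-A4 (edgeR adjusted p = 0.000426) and 0.83 ± 0.25 with all 9 samples (edgeR adjusted p = 0.282).

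Without H9-A4, CTGF changed more than any mesenchymal gene that rose, and TAGLN more than LOX and AXL. CTGF, a matricellular protein, was at 29.1 and 29.4 CPM in parental RKO, 0.464 to 2.6 in the 6 clones and 10.9 in H9-A4 (-4.78 ± 0.44, edgeR adjusted p = 6.6e-05). TAGLN, an actin-binding protein of contractile cells, was at 88.8 and 82.0 CPM in parental RKO, 5.06 to 33.9 in the 6 clones and 70.1 in H9-A4 (-2.53 ± 0.44, edgeR adjusted p = 0.00524). With all 9 samples the log2 fold changes were 2.76 ± 1.22 for CD44, 2.84 ± 1.09 for ACTA2, 1.98 ± 0.80 for LOX, -3.83 ± 0.79 for CTGF and -1.98 ± 0.65 for TAGLN, with edgeR adjusted p from 0.132 to 0.364. The fibroblast markers overlapped between the groups, with summed ranges of 6.52 to 8.55 CPM in parental RKO, 5.01 to 8.66 in DIP2C-/- and 4.97 to 8.85 in DIP2C+/-.

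Of the other EMT factors, 9 of 15 passed the filter without H9-A4, and 1 rose, 1 fell and 7 did not pass the test (median 0.07). ETS1, a transcription factor of invasive and vascular cells, was at 29.5 and 25.9 CPM in parental RKO, 235 and 252 in E3 and C10, 217, 175, 130 and 211 in A6-C9, F6-A7, G1-A5 and A9-A12, and 5.23 in H9-A4 (2.86 ± 0.22, edgeR adjusted p = 1.83e-05). Its clones divided as those of ZEB1 did. SOX4, a factor that acts with TGF-beta signalling in EMT, went the other way, from 143 and 137 CPM in parental RKO to 24.4 to 46.6 in the 6 clones, and was at 495 in H9-A4 (-2.09 ± 0.18, edgeR adjusted p = 4.71e-05). With all 9 samples the log2 fold change was 2.62 ± 0.96 for ETS1 and -0.75 ± 0.96 for SOX4 (edgeR adjusted p = 0.321 and 0.789), so H9-A4 alone brought the SOX4 value to less than its error.

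All 20 partners of the EMT factors were tested, and 4 fell, none rose and 16 did not pass the test (median -0.19). ID1 and ID3, which block helix-loop-helix factors, fell by 2.01 ± 0.54 and 0.97 ± 0.23 on the log2 scale (edgeR adjusted p = 0.0408 and 0.023). ID1 was at 29.6 and 36.2 CPM in parental RKO, 2.66 to 21.6 in the 6 clones and 48.9 in H9-A4. AJUBA, a corepressor of SNAI1, fell by 0.52 ± 0.11 (edgeR adjusted p = 0.0169), and EZH2, a histone methyltransferase, by 0.38 ± 0.11 (edgeR adjusted p = 0.0478). Both were small changes that did not reach 2-fold. In the fit of 9 samples the log2 values were -1.37 ± 0.76 for ID1, -0.67 ± 0.37 for ID3, -0.46 ± 0.13 for AJUBA and -0.33 ± 0.14 for EZH2, with edgeR adjusted p from 0.267 to 0.459. The list for microRNAs that repress ZEB1 and ZEB2 held the microRNA genes MIR200A, MIR200B, MIR429, MIR200C, MIR141 and MIR205, and the host gene MIR205HG. In every sample 0 or 1 of these 7 genes lay above the floor, with sums of 0.0426 to 0.295 CPM. Mature microRNAs were not measured, so these values do not tell whether the microRNAs changed.

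**Figure D4:**
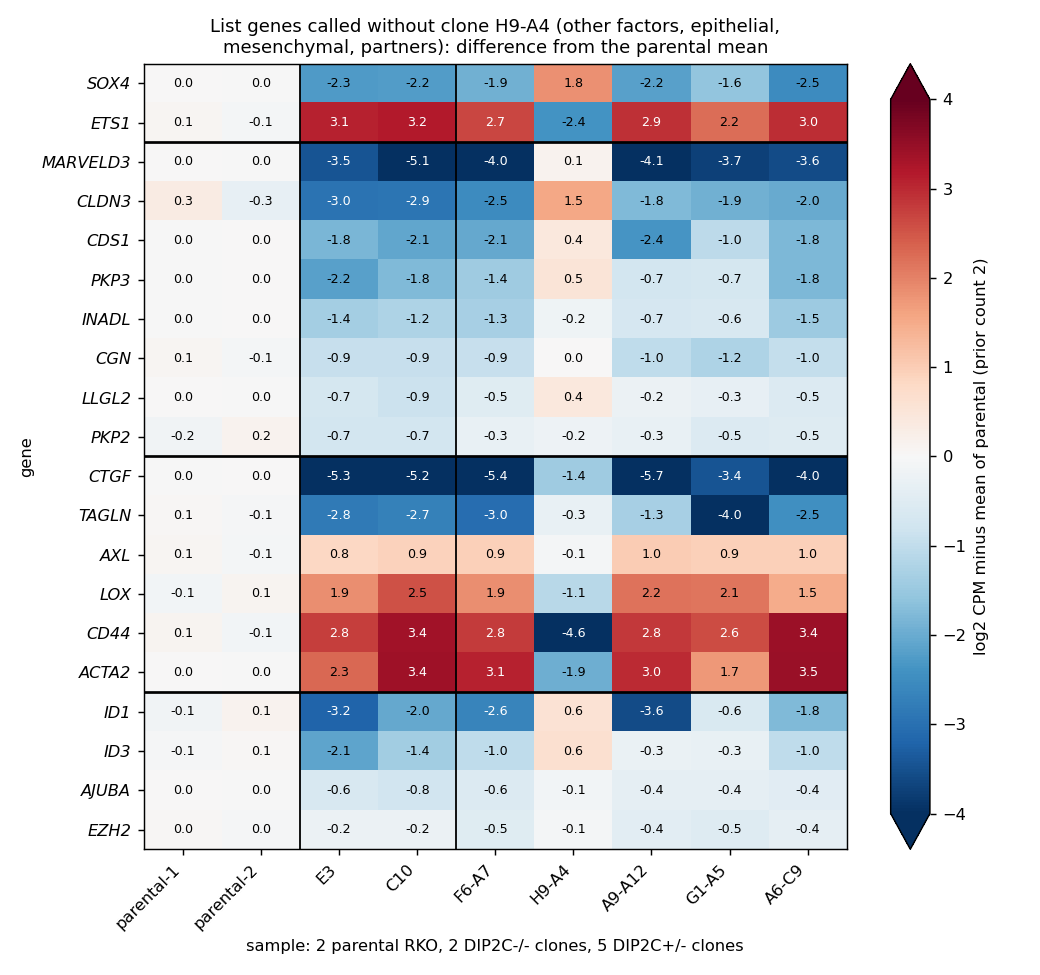
Log2 CPM minus the mean of the parental samples (colour and printed value, prior count 2, colours saturating at 4) for the 20 list genes called without H9-A4, grouped from the top as other EMT factors, epithelial genes, mesenchymal genes and partners. The 6 clones with high ZEB1 had 1 sign in each row, which adds no support, since the genes were called from these same clones. H9-A4 differed from them in size or sign, as at 1.01 CPM of CD44 and 495 CPM of SOX4.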

How the data were processed

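Ion Proton reads of 9 libraries had been aligned by the authors to hg19 with TopHat2 2.0.4 and quantified with Cufflinks (2.2.1 in the submitters' processing notes). The authors deposited an estimated count for each gene, with a scale that differed between samples: 98.3% to 98.7% of low values were whole multiples of 1 step. How they were written from Cufflinks, and whether strand was used, is not given in the sources used here. A wrong scale changes the assumed counting error, so fits were repeated with values divided by the step, which gave 17134422 to 24863851 reads.

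Values were rounded, although the design had assumed whole counts. Genes were filtered (filterByExpr), TMM-normalised and fitted in edgeR 4.0.16 (R 4.3.3) with 1 coefficient per genotype and no covariates. The quasi-likelihood F test was applied to each contrast at a Benjamini-Hochberg adjusted p of 0.05. The average of clones weighted each clone equally. The procedure was tested on simulated data.

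Members and lists were chosen with earlier results of these data known. Named genes were the 10 members, DIP2C, up to 4 called genes per list and direction, and the 5 and 3 genes most like ZEB1 and VIM. Alternatives were DESeq2 1.42.0, other scalings and filters, and leaving out each sample. Promoter windows are those of RefSeq (GRCh38.p14), matched exactly to GRCh37. 1 gene of the mesenchymal list is not reported here and was left out of the list. Batches could not be examined, since no dates are given.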

Additional observations from a re-analysis of the deposited data

Results flagged for a closer look

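Of 10 groups of DIP2C+/- clones examined, 1 for each member, 2 held a clone far from the rest by Dixon's criterion. For normally distributed values chance meets it in about 1 of 20 groups. CPM of genes with few reads need not be distributed so, and the share of all genes that meet the criterion was not counted. The 2 flags are therefore not set against a background. SNAI2 was at 3.28 CPM in F6-A7, and the gap to the next clone was 0.852 of the group's range. VIM was at 3.54 CPM in A9-A12, with a gap of 0.757 of the range. H9-A4 was not flagged in this way for ZEB1, where its 12.9 CPM stood beside 52.7 to 87.1 CPM in the other 4 clones.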

How the results depend on the processing

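Among member fold changes refitted under alternative settings, 432 kept their direction and their side of the threshold, 7 (all of ZEB1) passed it and 19 changed sign. Against parental RKO, ZEB1 stayed higher in 17 alternatives, at 2.45 to 2.67 in DIP2C-/-, 1.6 to 2.0 in DIP2C+/- and 1.86 to 2.19 in the average of all clones, with adjusted p from 1.32e-05 to 0.868. The 0 members called with 9 samples became 1 in each of these comparisons without H9-A4 and without H9-A4 and A6-C9, and 1 in DIP2C-/- when the fit held only the groups compared. The 0 called became 2 and 2 other EMT factors, 8 and 7 epithelial genes, 6 and 6 mesenchymal genes and 4 and 2 partners under those same omissions. Over fits leaving out 1 sample each, members called ran from 0 to 1, and the lists from 0 to 2, 0 to 8, 0 to 6 and 0 to 4. Signs that turned under such omissions, with lowest and highest log2 value, were SNAI1 in DIP2C+/- (-0.95 to 0.39) and in the average (-1.17 to 0.17), SNAI2 in DIP2C-/- (-0.53 to 2.88), DIP2C+/- (-0.97 to 2.38), the average (-0.29 to 2.52) and between genotypes (-2.04 to 1.08), VIM between genotypes (-0.68 to 0.60), CDH1 between genotypes (-0.20 to 0.40), and FN1 in DIP2C+/- (-0.36 to 0.20) and the average (-0.19 to 0.37). Between genotypes VIM was 0.17 without H9-A4 and A6-C9, and CDH1 was -0.000285 with library size scaling. None of these was called, and the causes were not tested. Genes called in all numbered 1, 15, 28 and 0 (DIP2C-/-, DIP2C+/-, average, between genotypes) with 9 samples, 295, 191, 304 and 6 by DESeq2, 733, 1224, 1378 and 0 without H9-A4, 768, 874, 1107 and 0 without both clones, and 1807 in DIP2C-/- with only the groups compared. A minimum of 10 counts in every sample left 0, 8 and 11 called against parental RKO, no filter gave 3, 22 and 36, and leaving out a parental sample gave 1 or 2. No paired analysis was possible because the clones carry names and no shared replicate numbers. Depth limits ZEB2, SNAI2, TWIST1, TWIST2, VIM, CDH1 and CDH2, and 2 samples in 2 of the groups limit every test.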

Other observations

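MSN (moesin), a mesenchymal list gene singled out after its values were seen, was at 51.2 CPM in A9-A12 and at 0.213 to 1.21 CPM in the other 8 samples. A9-A12 was also the clone with the highest VIM, at 3.54 CPM, and the highest CDH1, at 0.717 CPM. MSN did not pass the edgeR test in the average of clones without H9-A4 (4.67 ± 2.18 on the log2 scale, adjusted p = 0.231). With all 9 samples it was 4.62 ± 2.41 (edgeR adjusted p = 0.43).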
